A study of Mus musculus with 6 samples.

Results

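To examine the RNA of the inflammatory cell death machinery after microglia ablation, 9 genes were followed in cortical tissue: Nlrp3, Pycard, Casp1, Casp4 and Gsdmd of the inflammasome and pyroptosis pathway, and Casp8, Ripk1, Ripk3 and Mlkl of the death receptor and necroptosis pathway. They were taken by symbol from a table of 23366 genes, and all 9 were found. RNA-seq was performed on brain cortex of 3 control mice (A1, A2 and A3) and 3 microglia-depleted mice (A4, A5 and A6), with 1 library per mouse. The study describes the tissue as frontal cortex, whereas the neuronal loss it reports was in the somatosensory cortex. The mice were adults on a C57BL/6 background and carried CX3CR1-CreERT2, a tamoxifen-inducible Cre recombinase under the CX3CR1 promoter. All received tamoxifen. The d10 depleted mice also carried iDTR, a diphtheria toxin receptor behind a floxed STOP, and were given diphtheria toxin, whereas the littermate controls lacked iDTR. The study describes the groups as matched for age and sex. Whether the controls were given the toxin, and an age in numbers, are not given in the sources used here. CX3CR1 is also expressed by monocytes and other macrophages, and the methods rely on the replacement of targeted monocytes before the toxin. By d10 microglia had repopulated the tissue, so that the depleted group stands for repopulated and not for microglia-free cortex. Values are FPKM, a level in which fragment counts are scaled to transcript length and library size.

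An inflammasome is a protein platform on which a sensor such as NLRP3 recruits the adaptor ASC, the product of Pycard, and through it caspase-1. Caspase-1 matures interleukin-1beta and interleukin-18 and cuts gasdermin D, whose amino-terminal part forms membrane pores, a lytic death called pyroptosis. Caspase-11, the product of mouse Casp4, cuts gasdermin D after sensing bacterial lipopolysaccharide in the cytosol. In necroptosis, RIPK1 or another activator engages RIPK3, which phosphorylates the pore-forming pseudokinase MLKL, and caspase-8 restrains this route by cutting the RIPK proteins. In brain, several of these genes are best known from microglia, and some are induced by interferons or by NF-kappaB.

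The promoter windows of 3 members are shown here because Ripk1 and Casp1 were the members whose groups of mice lay apart, and Casp4 is the gene next to Casp1. The sequences are from RefSeq on GRCm38.p6, plus strand, 5′ to 3′, with motif matches in capitals. The window of Ripk1 is chr13:34002754-34002883, from 120 bases before to 10 bases after the second of its listed starts, at 34002874. The windows of Casp1 (chr9:5298397-5298516) and Casp4 (chr9:5308729-5308848) end at the base before a RefSeq start, which for Casp4 is at 5308849.
Ripk1: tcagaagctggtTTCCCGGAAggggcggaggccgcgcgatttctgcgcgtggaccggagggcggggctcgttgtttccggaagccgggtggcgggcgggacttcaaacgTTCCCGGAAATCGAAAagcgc
Casp1: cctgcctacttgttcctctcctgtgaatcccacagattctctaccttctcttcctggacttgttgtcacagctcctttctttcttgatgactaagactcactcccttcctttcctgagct
Casp4: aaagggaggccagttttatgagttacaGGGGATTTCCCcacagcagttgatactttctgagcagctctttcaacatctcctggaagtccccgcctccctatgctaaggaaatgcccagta

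In these windows the capitals mark GAAANNGAAA, the core of the interferon-stimulated response element, TTCNNNGAA, the core of the gamma-activated site bound by STAT proteins, and the NF-kappaB consensus, each searched on both strands from 250 bases before to 50 bases after every start. Promoters were found for 8 of the 9 members. Of the 11 promoters of these 8 genes, 1 held GAAANNGAAA, against 3.44% of all 32851 promoters, and 1 held TTCNNNGAA, against 8.3%. Both matches were in Ripk1, where TTCNNNGAA occurs at positions -108 to -100 and -11 to -3 from the start and the second of these overlaps GAAANNGAAA at -5 to 5. TTCNNNGAA reads the same on both strands. The NF-kappaB consensus was found in Casp4, at 1 place that both of its overlapping promoter windows cover, and in 1 of the 2 promoters of Nlrp3, and 4.51% of all promoters held it. The Casp1 promoter held none of these letters.

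Library depth and the state of the tissue bear on such weakly expressed genes. Weak genes take values in steps of 1 fragment, and the size of this step put the depth near 14500000 to 20600000 fragments in the control and 7130000 to 13700000 in the depleted libraries, with A5 the shallowest. Markers of cortical neurons were abundant (Slc17a7 between 325.0 and 383.3 FPKM), and the 10 microglia markers summed to 139.4 to 166.8 FPKM in control and 155.5 to 225.9 FPKM in depleted mice, with none at 0. Other cell types also differed in their markers. The 5 choroid plexus markers, Ttr among them, summed to 166.5 to 322.8 FPKM in control and 44.5 to 69.0 FPKM in depleted mice. All 5 were lower, 4 of them at an unadjusted p under 0.05 in limma. The 5 oligodendrocyte markers summed to 2746 to 2994 FPKM in control and 2419 to 2463 FPKM in depleted mice. Of these, all 5 were lower and 3 had such a p. Of the 6 astrocyte markers, 1 was higher and 5 were lower in depleted mice, with a median log2 fold change of -0.14. The higher one was Gfap, the astrocyte filament gene, at 64.5 to 88.3 FPKM in control and 108.5 to 300.3 FPKM in depleted mice. The part of tissue composition in the members' values was not tested. Depleted mouse A4 stood apart: the sum of 10 interferon response genes was 402.9 FPKM in A4, against 71.5 in A5, 66.3 in A6 and 20.5 to 32.3 in control mice. The part of this response in the members' values was not tested. Transcripts of 4 Y-linked genes summed to 5.56 FPKM in A4 and to at most 0.16 in the other mice, and Xist was at 4.74 FPKM in A3 and at 30.9 to 46.7 FPKM in the others, including A4, values that differ between mice described as sex-matched. Each mouse was also left out in turn for the members and most of the named pathway genes. Log2 differences of these genes that moved more than 1.5 times or turned sign without A4 or A5 are given below.

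The members fell into a weakly expressed and a barely detected set. Ordered by mean FPKM over the 6 mice, Casp1 (1.95) was followed by Ripk1 (1.57), Pycard (1.37), Gsdmd (1.05) and Casp8 (0.687), and then by Nlrp3 (0.177), Casp4 (0.167), Mlkl (0.120) and Ripk3 (0.110). By control means alone, Casp4 (0.263) lay above Nlrp3 (0.190) and Ripk3 (0.130) above Mlkl (0.10). Of the 8 pairs of neighbours in this order, 7 overlapped in the control mice. The exception was the step from Casp8, at 0.57 to 0.86 FPKM, to Nlrp3, at 0.10 to 0.29 FPKM. Thus the sensor, caspase-11 and both terminal necroptosis genes lay below the adaptor, caspase-1, the pore former and the upstream kinase. The first 5 of these genes had a mean of at least 0.5 FPKM and entered the test, and the other 4 are described without it.

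**Figure D1:**
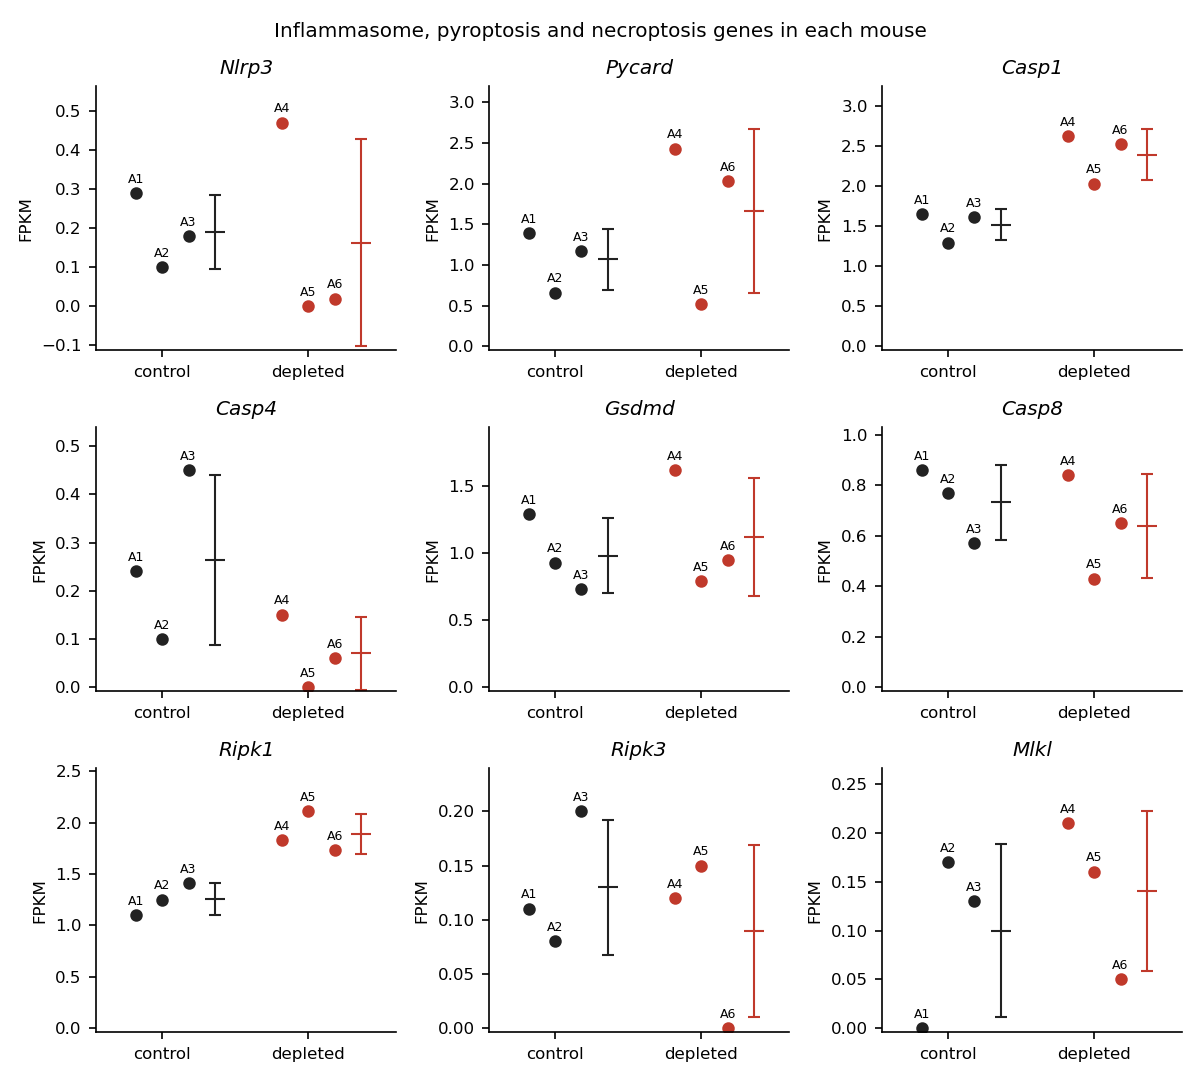
FPKM of the 9 genes in each mouse (points; control black, depleted red), with the mean and SD of each group of 3 beside the points; each panel has its own FPKM axis. In Casp1 and Ripk1 the 3 depleted mice lie above the 3 controls, and in Nlrp3 A4 lies above and A5 and A6 below all controls.

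Differences were tested with limma on log2(FPKM + 1) over the 14385 genes whose mean reached 0.5 FPKM, p-values were adjusted over all of them by the Benjamini-Hochberg method, and log2 fold changes below are on this scale, which understates changes of low genes. Of the 5 members tested, 0 had an adjusted p under 0.1 in limma, a level that 4 genes, or 0.0278% of those tested, reached. The 10 interferon response genes, with a median log2 fold change of 1.90, also held 0 genes at this level. An unadjusted p under 0.05 was found in limma for 2 of the 5, Casp1 and Ripk1, both higher in depleted mice. Over all genes tested, 10.5% had such a p, and 4.79% had it with a higher mean in depleted mice. The groups did not overlap in these same 2 of 9 members, against 17.6% of the genes tested, or 8.21% with the depleted mice higher. Over the whole of the genes tested the median log2 fold change was -0.0085.

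Casp1 (chromosome 9, 5298517 to 5307265 on GRCm38), the protease at the centre of the inflammasome, had FPKM values of 1.65, 1.29 and 1.61 in A1 to A3, against 2.62, 2.03 and 2.52 in A4 to A6. Every depleted mouse was above every control. The means were 1.52 ± 0.197 (SD, n = 3) and 2.39 ± 0.316 FPKM (SD, n = 3), a ratio of 1.58, and the log2 fold change was 0.43 (SE 0.14, 95% interval 0.10 to 0.76, adjusted p = 0.396 in limma). The unadjusted p of 0.0162 in limma ranged from 0.00577 to 0.0678 over the alternatives, and without A2 it was above 0.05. Exact permutation of the 2 groups (two-sided) gave p = 0.1, below which 6 mice in groups of 3 cannot go. With the highest mouse A4 left out, the log2 fold change was 0.38, and it lay between 0.36 and 0.51 whichever mouse was left out.

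Few fragments stood behind these values. At the length of its single annotated transcript, 1497 bases, Casp1 had about 36, 40 and 44 fragments in A1 to A3 and 54, 22 and 42 in A4 to A6. The exact 95% Poisson interval of A5 ran from 1.29 to 3.12 FPKM and that of A2 from 0.926 to 1.76 FPKM, and these intervals, which cover counting error only, overlap. No window of 75 bases in Casp1 occurs in another annotated gene.

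Casp1 is expressed by microglia and macrophages, and the microglia markers did not move as 1 group. Of the 10, 4 had an unadjusted p under 0.05 in limma and a higher mean in depleted mice, among them C1qa and Aif1, and 2, P2ry12 and Fcrls, had a lower mean, while 0 had an adjusted p under 0.1. The 8 markers of monocytes and border macrophages summed to 4.48 to 5.17 FPKM in control and 4.08 to 9.12 FPKM in depleted mice. In bulk tissue, more cells of a type cannot be told apart from more RNA per cell, and the part of either in the Casp1 difference was not tested.

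Ripk1 (chromosome 13, 34002363 to 34037147), the kinase that directs death receptor signals to survival, apoptosis or necroptosis, had FPKM values of 1.1, 1.25 and 1.41 in control mice, against 1.83, 2.11 and 1.73 in A4 to A6. The groups did not overlap, and here A5, not A4, was highest. The means were 1.25 ± 0.155 (SD, n = 3) and 1.89 ± 0.197 FPKM (SD, n = 3), a ratio of 1.51, with a log2 fold change of 0.36 (SE 0.14, 95% interval 0.039 to 0.68, adjusted p = 0.440 in limma). The unadjusted p of 0.0321 in limma ranged from 0.00796 to 0.116, and was above 0.05 without A1, A2 or A5. The exact two-sided permutation test gave p = 0.1. The log2 fold change stayed between 0.31 and 0.41 with any mouse left out. Of the 75-base windows of Ripk1, 7.27% occur in overlapping annotated genes, among them Serpinb6a on the opposite strand, at 25.4 to 29.7 FPKM in control and 22.3 to 29.5 FPKM in depleted mice. Since the sources used here do not state whether strand was used in counting, the part of these reads in Ripk1 was not tested.

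**Figure D2:**
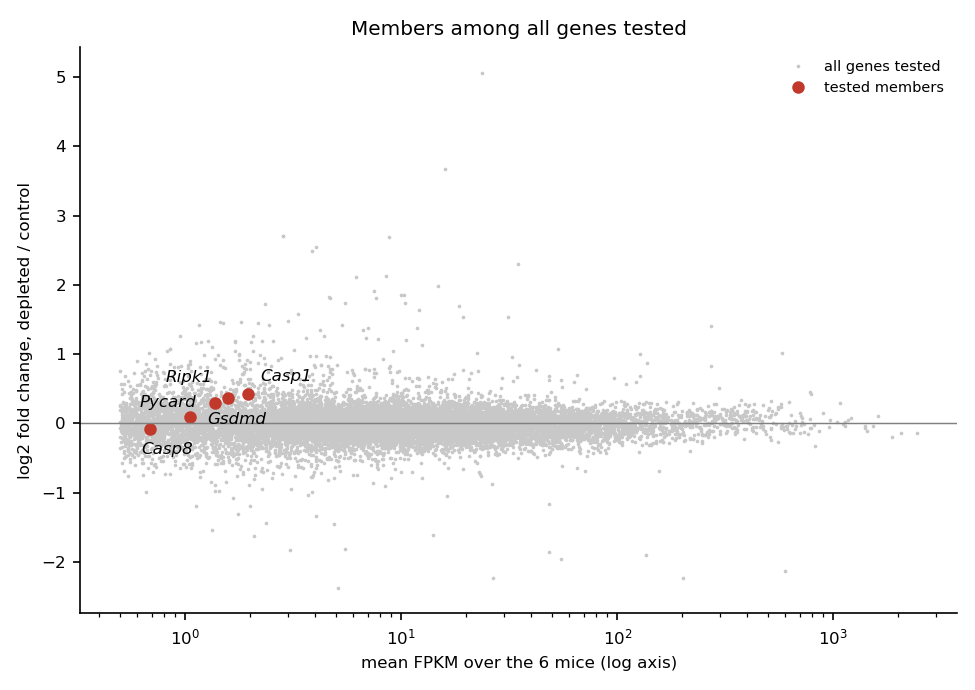
Log2 fold change (depleted over control, on log2(FPKM + 1)) against mean FPKM over the 6 mice on a log axis, for the 14385 genes tested (grey) and the 5 tested members (red). Casp1 at 0.43 and Ripk1 at 0.36 lie within the spread of other genes of similar level, and Casp8 at -0.084 is the only member below 0.

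Pycard (chromosome 7, 127989708 to 127993867) encodes the adaptor that joins sensor and caspase-1. Its FPKM was 1.39, 0.66 and 1.17 in control mice, with a mean of 1.07 ± 0.375 (SD, n = 3), and 2.43, 0.52 and 2.03 in A4 to A6, with a mean of 1.66 ± 1.01 (SD, n = 3). A4 and A6 were above all controls and A5 was below them. The log2 fold change was 0.29 (SE 0.31, 95% interval -0.41 to 0.99, adjusted p = 0.756 in limma). It was 0.65 without A5 (unadjusted p = 0.0120, adjusted p = 0.242 in limma), where the groups did not overlap, as in 32.7% of the genes tested in those 5 mice, and 0.066 without A4. A sequence of Gm45205, an overlapping gene on the other strand, contains 10.9% of the windows of Pycard.

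Gsdmd (chromosome 15, 75862327 to 75867408), the pore former of pyroptosis, was at 1.29, 0.93 and 0.73 FPKM in control mice, against 1.62, 0.79 and 0.95 FPKM in depleted mice. Only A4 was above the control range. The log2 fold change was 0.086 (SE 0.20, 95% interval -0.36 to 0.54, adjusted p = 0.903 in limma), and its sign turned without A4, at -0.076, and without A3, at -0.0076, while it was 0.20 without A5. Casp8 (chromosome 1, 58795374 to 58847503), the protease that triggers apoptosis and holds necroptosis back, was at 0.86, 0.77 and 0.57 FPKM in control and 0.84, 0.43 and 0.65 FPKM in depleted mice. The log2 fold change was -0.084 (SE 0.17, 95% interval -0.47 to 0.30, adjusted p = 0.889 in limma), or 0.011 without A5 and -0.17 without A4. The intervals of both genes span 0, and that of Gsdmd also holds the estimate of Casp1, so that a difference of that size was not excluded.

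**Figure D3:**
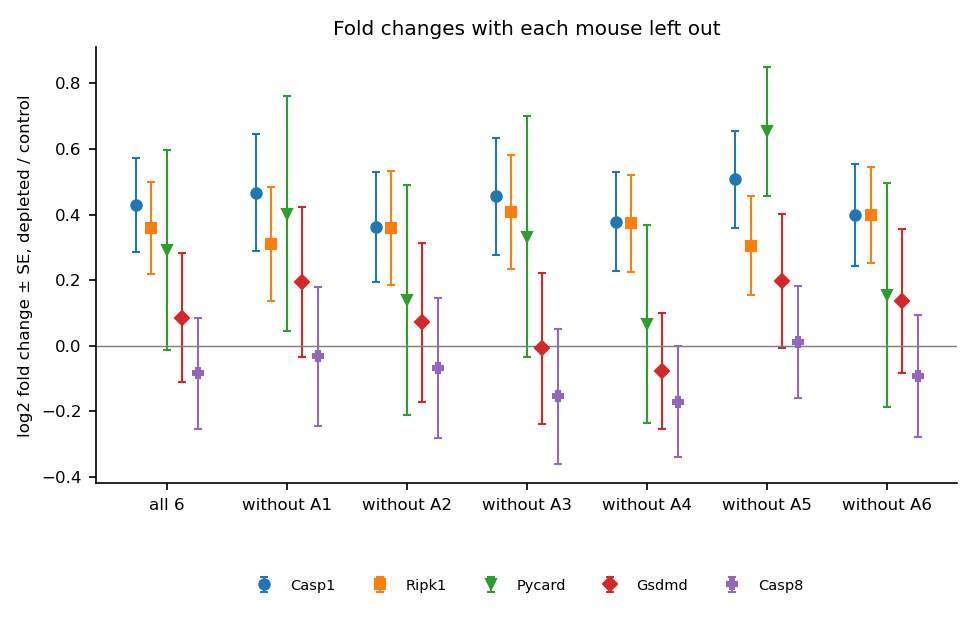
Log2 fold change with its SE for the 5 tested members, with all 6 mice and with each mouse left out in turn. Casp1 and Ripk1 stay between 0.31 and 0.51 in every set of mice, whereas Pycard runs from 0.066 without A4 to 0.65 without A5 and Gsdmd crosses 0.

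The inflammasome sensor Nlrp3 (chromosome 11, 59541568 to 59566956) had FPKM values of 0.29, 0.10 and 0.18 in control mice, against 0.47, 0 and 0.02 in A4 to A6. The depleted mice split to both sides of the controls: A4 was above all 3, and A5 and A6 were below. At a transcript length of 4021 bases these values stand for about 17, 8 and 13 fragments in control mice and for 26, 0 and 1 in depleted mice. The 0 in A5 allows up to 0.10 FPKM, the value of 3 fragments, which is the level of A2. The exact 95% Poisson interval of A4, 0.308 to 0.691 FPKM, lay above that of A6, 0.000562 to 0.124 FPKM, so that these 2 depleted mice differed beyond counting error. On the log2(FPKM + 1) scale the group means differed by -0.053 (depleted minus control), or by -0.23 without A4 and 0.044 without A5. The group means were 0.190 ± 0.0954 (SD, n = 3) and 0.163 ± 0.266 FPKM (SD, n = 3). The exact two-sided permutation test of their difference gave p = 1, with depleted values on both sides of the controls.

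Casp4 (chromosome 9, 5308828 to 5336783) starts 1562 bases after the end of Casp1 on the same strand. Its FPKM was 0.24, 0.10 and 0.45 in control mice, against 0.15, 0 and 0.06 in A4 to A6. A5 and A6 were below all controls and A4 was within their range, the opposite side from Casp1. With 1435 bases taken as length, about 5, 3 and 12 fragments stood behind the control values and 3, 0 and 1 behind the depleted. The 0 in A5 allows up to 0.29 FPKM. Exact permutation (two-sided) of the groups, whose means were 0.263 ± 0.176 (SD, n = 3) and 0.0700 ± 0.0755 FPKM (SD, n = 3), gave p = 0.2. Without A4 the groups did not overlap in 4 of the 9 members, Casp1 and Ripk1 and also Nlrp3 and Casp4, both lower in depleted mice. Such separation was found for 30.2% of the tested genes in those 5 mice, and the limit of 0.29 FPKM for Casp4 in A5 is above its level in A2.

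Ripk3 (chromosome 14, 55784995 to 55788865), the kinase that activates MLKL, was at 0.11, 0.08 and 0.20 FPKM in control and 0.12, 0.15 and 0 FPKM in depleted mice, or 3, 3 and 7 against 3, 2 and 0 fragments. Mlkl (chromosome 8, 111311797 to 111338177), the executioner of necroptosis, was at 0, 0.17 and 0.13 FPKM in control and 0.21, 0.16 and 0.05 FPKM in depleted mice, or 0, 7 and 5 against 6, 2 and 1 fragments. In both genes the groups overlapped, and exact two-sided permutation gave p = 0.6 in either. On the log2(FPKM + 1) scale the group means of Ripk3 differed by -0.053 (depleted minus control), or by -0.093 without A5. Those of Mlkl differed by 0.052, or by 0.0080 without A4. The 0 of Ripk3 in A6 allows up to 0.14 FPKM and the 0 of Mlkl in A1 up to 0.10 FPKM. At 0 to 7 fragments per mouse a small difference between groups could be missed, and the smallest detectable difference was not determined.

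Counted by mouse, A4 was above every control mouse in 6 of the 9 members (Nlrp3, Pycard, Casp1, Gsdmd, Ripk1 and Mlkl) and below every control in 0, where 36% and 38% of the genes tested lay above and below in that mouse. A5 was above in 2 and below in 4 (29.4% and 32.7% of the genes tested), and A6 was above in 3 and below in 3 (32.9% and 33.6%). Casp1 and Ripk1 were the members that were above every control in each of the 3 depleted mice. With 1 mouse left out, non-overlapping groups were found in 2 members without A1 (23.6% of the genes tested), 3 without A2, Casp4 being the third (26%), 2 without A3 (24.7%), 4 without A4 (30.2%), 3 without A5, Pycard being the third (32.7%), and 2 without A6 (31.5%). The shares are over the genes that passed the filter, which 4 of the 9 members did not.

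To place the members in their pathways, 55 further genes in 6 lists were read from the same fit. Of these, 35 passed the filter and 21 had a higher mean in depleted mice. An unadjusted p under 0.05 was found in limma for 1 with a higher and 1 with a lower mean, against 4.79% and 5.74% of all genes tested, and 0 had an adjusted p under 0.1. Among the 35 that passed the filter, groups did not overlap in 4 higher (Nlrp1a, P2rx7, Zbp1, Fadd) and 2 lower (Rbck1, Spata2). Over all genes tested the shares were 8.21% and 9.38%. The median log2 fold change of the 35 was 0.052. Of the pathway genes compared with the annotation, Naip5 shares 23.8% of its windows with other genes and Txnip 13.8%. The share is 5.37% for Cflar, 5.04% for Fadd, 1.21% for Spata2, 0.75% for P2rx7 and 0.65% for Nlrp1a. The part of reads from other genes in their values was not tested.

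Among the other sensors, 3 of 10 passed the filter. Nlrp1a, which encodes another inflammasome sensor, was at 0.70, 0.77 and 0.81 FPKM in control and 1.17, 1.17 and 1.65 FPKM in depleted mice, and its log2 fold change was 0.40 (SE 0.15, adjusted p = 0.438 in limma). Its unadjusted p was 0.0308 in limma, and was above 0.05 with any control mouse or A6 left out, at 0.0645 to 0.0929. Aim2, the sensor of cytosolic double-stranded DNA, was at 1.15 to 1.35 FPKM in control mice, against 2.03, 0.45 and 1.29 FPKM in A4 to A6, with A4 above and A5 below the controls. Its log2 fold change was -0.041 (adjusted p = 0.966 in limma), or 0.25 without A5 and -0.29 without A4. The pyrin gene Mefv was listed at 0 in all mice.

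Of the genes that trigger or regulate the inflammasome, 5 of 6 passed the filter and 3 had a higher mean. P2rx7, the ATP-gated channel upstream of NLRP3, was at 1.66, 1.65 and 1.76 FPKM in control and 3.68, 2.32 and 1.94 FPKM in depleted mice. The log2 fold change was 0.41 (SE 0.18, adjusted p = 0.484 in limma), and 0.22 without A4. Txnip, a thioredoxin-binding protein linked to NLRP3, had the lowest value of the list, at -0.16 (adjusted p = 0.768 in limma), or -0.29 without A4, with overlapping groups.

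The substrates of caspase-1 differed widely in level. Il18 was at 20.7, 17.9 and 19.9 FPKM in control and 18.6, 16.1 and 19.2 FPKM in depleted mice, above every member, and its log2 fold change was -0.12 (SE 0.099, 95% interval -0.34 to 0.11, adjusted p = 0.700 in limma), or -0.043 without A5. Il1b was at 0.10, 0.37 and 0 FPKM in control mice, against 0.65, 0.42 and 0.40 FPKM in A4 to A6. The groups did not overlap in Il1b, which was below the filter (exact two-sided permutation test, p = 0.1). Of the other pore formers, gasdermin E, listed as Dfna5, was at 5.16 to 6.47 FPKM in control and 6.02 to 7.46 FPKM in depleted mice (log2 fold change 0.14, adjusted p = 0.703 in limma, or 0.073 without A4). Ninj1, which ruptures the membrane of dying cells, had the lowest value of its list, at -0.26 (adjusted p = 0.618 in limma). It was -0.14 without A4 and -0.44 without A5 (unadjusted p = 0.0140, adjusted p = 0.243 in limma). Listed at 0 in all mice were 5 of the other gasdermin genes.

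**Figure D4:**
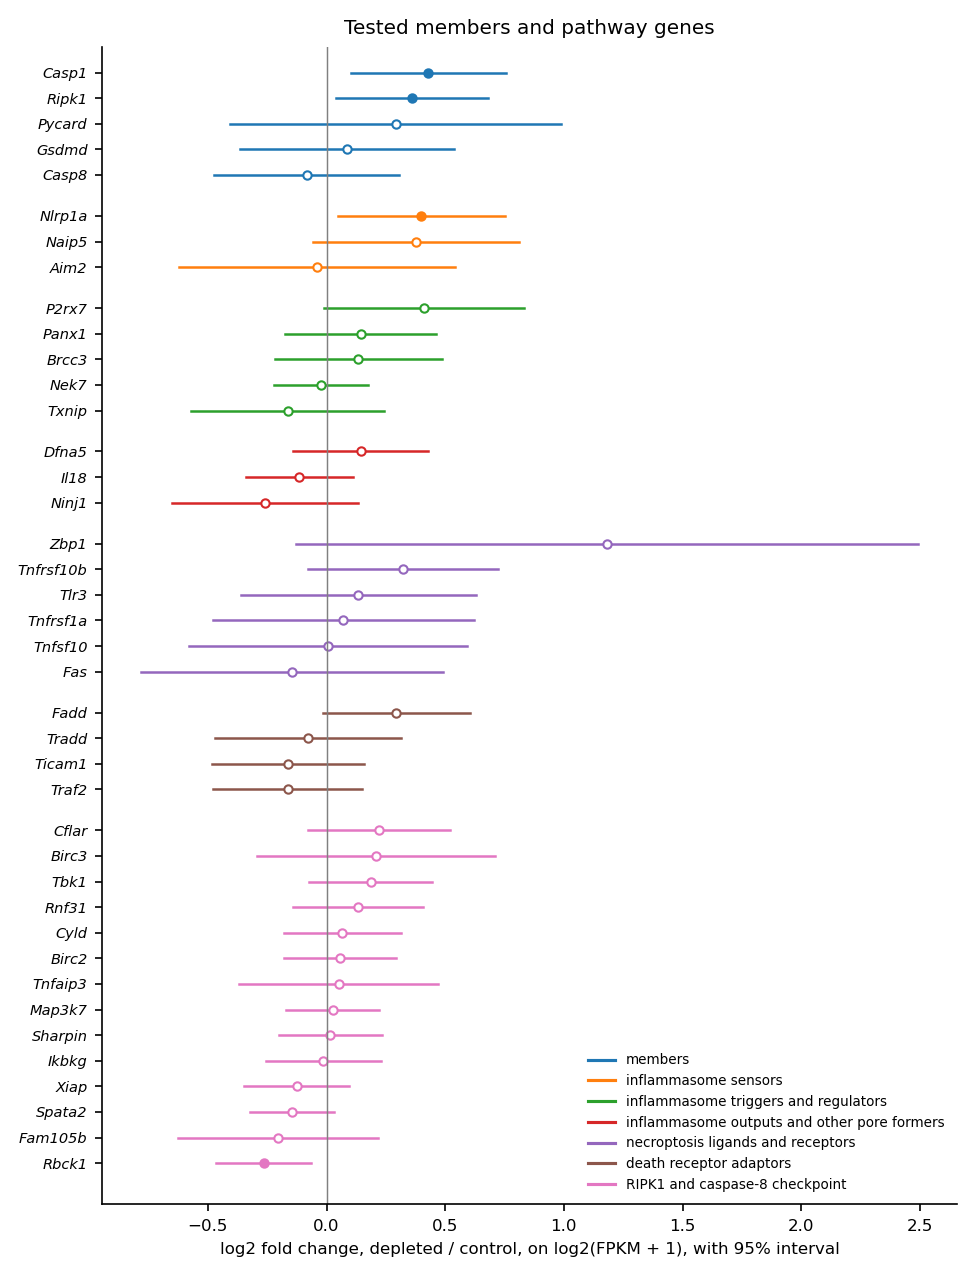
Log2 fold change (depleted over control, on log2(FPKM + 1)) with its 95% interval for the 5 tested members and the 35 tested genes of the 6 pathway lists, coloured by list; filled points have an unadjusted p under 0.05 in limma. Casp1, Ripk1, Nlrp1a and Rbck1 are filled, and the interval of Zbp1, from -0.13 to 2.49, is the widest.

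Upstream of necroptosis, Zbp1, the nucleic acid sensor that engages RIPK3 directly and is induced by interferon, was at 0.53, 0.29 and 0.11 FPKM in control mice, against 7.82, 0.55 and 0.87 FPKM in A4 to A6. A5 was barely above A1, and A4 was far above all others. The log2 fold change was 1.18 (SE 0.57, adjusted p = 0.513 in limma), and was 0.39 without A4. Tnf was listed at 0 in all mice, and Fas, a death receptor, had the lowest value of the 6 ligand and receptor genes tested, at -0.15 (adjusted p = 0.879 in limma), or 0.11 without A5 and -0.48 without A4 (unadjusted p = 0.0271, adjusted p = 0.332 in limma). Of the 4 adaptors, Fadd, which brings caspase-8 to death receptors, was at 1.02, 1.13 and 0.96 FPKM in control and 1.52, 1.47 and 1.5 FPKM in depleted mice, and its log2 fold change was 0.29 (SE 0.14, 95% interval -0.016 to 0.60, adjusted p = 0.492 in limma). Traf2 was lowest, at -0.16 (adjusted p = 0.693 in limma).

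The checkpoint around RIPK1 and caspase-8 had 14 of 15 genes tested, with 9 higher and a median log2 fold change of 0.039. Cflar, the caspase-8 partner that blocks death, was at 4.08 to 5.32 FPKM in control and 4.89 to 5.96 FPKM in depleted mice, and its log2 fold change was 0.22 (SE 0.13, adjusted p = 0.579 in limma). Rbck1, a subunit of the linear ubiquitin ligase complex that marks RIPK1 for survival signalling, was at 40.9, 37.4 and 39.4 FPKM in control and 32.2, 35.6 and 29.8 FPKM in depleted mice. Every depleted mouse was below every control, with a log2 fold change of -0.26 (SE 0.087, adjusted p = 0.394, unadjusted p = 0.0152 in limma). The unadjusted p was above 0.05 without A1, at 0.0644, and without A6, at 0.0519. The other 2 subunits of the complex, Sharpin and Rnf31, were at 0.016 and 0.13 on the log2 scale, with adjusted p = 0.966 and 0.718 in limma. Spata2, which links the deubiquitinase CYLD to this complex and was named after its values were seen, was at 18.6 to 19.5 FPKM in control and 16.8 to 17.6 FPKM in depleted mice (log2 fold change -0.15, adjusted p = 0.540 in limma).

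**Figure D5:**
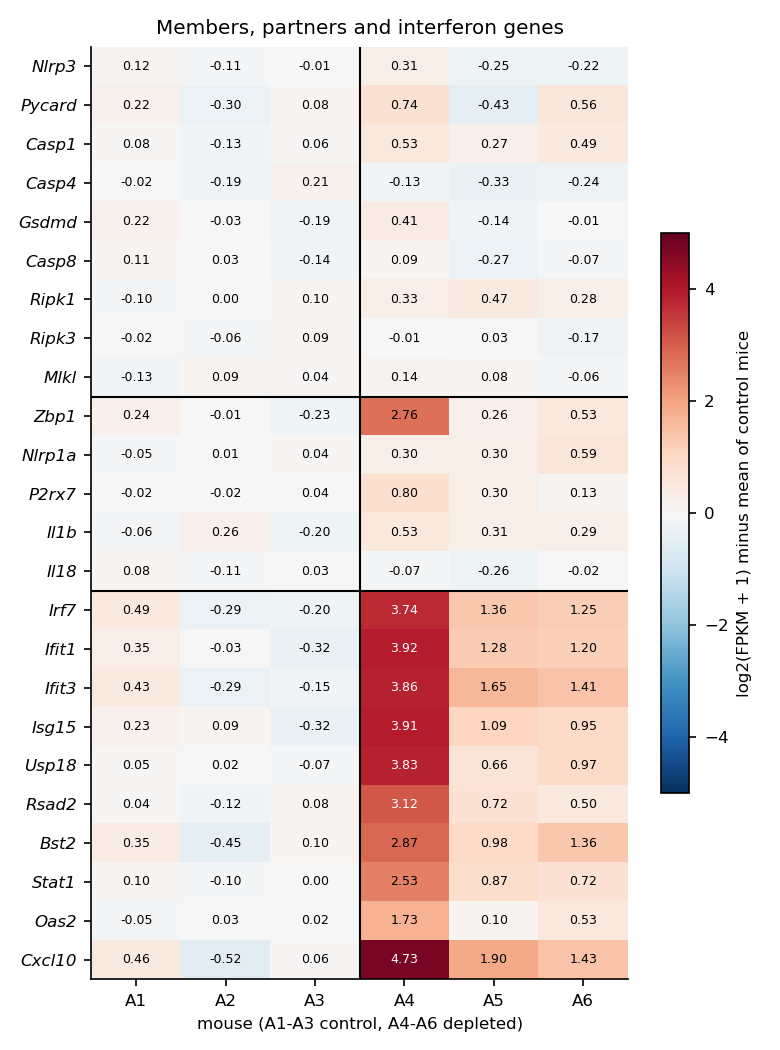
Log2(FPKM + 1) minus the mean of the control mice, for the 9 members (top), 5 pathway partners (middle) and 10 interferon response genes (bottom) in each mouse; numbers give the difference. The interferon genes and Zbp1 (2.76) are highest in A4, while the largest difference of a member in that mouse is 0.74, in Pycard.

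The members and the interferon response genes of A4 were set side by side on a scale that understates changes of low genes. Nlrp3, at 0.47 FPKM in A4 against a control mean of 0.190, differs by only 0.31 on it. The part of the interferon response in the members' values was not tested. The 10 interferon response genes exceeded the control mean by 1.73 to 4.73 on the log2(FPKM + 1) scale in A4, whereas the members of A4 lay between -0.13 for Casp4 and 0.74 for Pycard. Casp1 exceeded the control mean by 0.53, 0.27 and 0.49 in A4, A5 and A6 and Ripk1 by 0.33, 0.47 and 0.28.

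The genes with the most similar pattern over the 6 mice were found for the 3 members with the largest log2 fold changes, by the root mean square difference of the log2(FPKM + 1) values from the control mean, among the other 14384 genes tested. For Casp1 they were Snhg4 (0.0515), 9230110C19Rik (0.0575) and Rccd1 (0.0604). For Ripk1 they were Zfc3h1 (0.0591), Naa38 (0.0612) and Vrk2 (0.0627). For Pycard they were 1700110I01Rik (0.0994), Spata24 (0.111) and 5730480H06Rik (0.133). As in Pycard each of these was higher in A4 and A6 than in A5, which follows from their choice by similarity.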

How the data were processed

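Cortical RNA of 6 mice was sequenced by the authors from TruSeq poly(A) libraries as 75 bp paired-end reads, aligned with TopHat and quantified with RSEM on known transcripts; the submitters' processing notes name mm9 and DESeq. The table the authors deposited holds FPKM per gene and mouse, TMM-scaled and rounded to 2 decimals. Versions, annotation and strand setting are not given in the sources used here. The study's test on raw counts was not repeated.

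Genes whose mean reached 0.5 FPKM were compared on log2(FPKM + 1) with limma 3.58.1 in R 4.3.3 (eBayes with trend, Benjamini-Hochberg, threshold 0.1), without covariates. The fit was tested on simulated data, with planted shifts larger than the log2 fold change of any tested member. That test does not cover differences of the members' size. Labels do not say whether mice share litters. Exact permutation tests were two-sided. Other steps used Python 3.11.15. Positions, transcript lengths and 75-base windows came from GENCODE M21 (GRCm38), and members were matched by symbol. Depth was estimated from 1813 genes with a single transcript of 400 to 1500 bases. Fragment numbers are given for Casp1, Nlrp3, Casp4, Ripk3 and Mlkl, the members picked because their values lay near whole fragments. Their 26 values above 0 lay within 0.35 of a whole fragment, which by this choice is no check of the numbers. Each number rests on 1 transcript length per gene. Annotated transcripts number 3 for Nlrp3, 7 for Casp4, 9 for Ripk3 and 4 for Mlkl.

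The members and lists were chosen with earlier results of these data known. Genes named were the members, Zbp1, Il1b, Il18, Tnf, Aim2 and Cflar, the highest and lowest log2 fold change of each list, and the 3 nearest patterns of 3 members; Spata2, Sharpin, Rnf31, Mefv, Naip5, Serpinb6a, Gm45205 and marker genes were added after values were seen. Alternatives were other pseudocounts, filters, scalings, variance models, an adjusted threshold of 0.05 and leaving out each mouse.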

Additional observations from a re-analysis of the deposited data

How the results depend on the processing

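The count of genes called over the whole table, 4, was 2 without the variance trend and 20 with array weights, and ranged from 2 to 29 with 1 mouse left out (29 without A5, 8 without A6, 2 without A1). Members with an unadjusted p under 0.05 in limma numbered 2 in all fits with 6 mice and from 0 (without A2; 1 without A1) to 2 with 1 mouse left out; without A5 they were Pycard and Casp1. Members whose groups did not overlap numbered 2 to 4 with a mouse left out, with 4 without A4, where 30.2% of the genes tested did not overlap; in the sets of 5 mice this share was 23.6% to 32.7%. Pathway genes with an unadjusted p under 0.05, 2 in the main analysis, numbered 5 without a filter, 5 without the variance trend and 1 with quantile normalization, and from 0 (without A1) to 5 (without A5) with a mouse left out, with 4 without A4 and 1 without A2 or A3. The sign of Gsdmd turned with array weights (-0.037), and with 1 mouse left out its log2 fold change ran from -0.076 to 0.20. That of Casp8 ran from -0.17 to 0.011, that of Aim2 from -0.29 to 0.25 and that of Fas from -0.48 to 0.11. The cause was not tested. Casp1, Ripk1 and Pycard kept their sign and an adjusted p above 0.1 in all 15 alternatives. Alternatives for the named pathway genes were added after the data were seen. A pseudocount of 0.1 moved the untested members most, with Casp4 at -1.07 against -0.23. Rescaling moved the median of all genes by less than 0.01. Casp4, Ripk3 and Mlkl rest on 0 to 12 fragments per mouse, and Nlrp3 on 0 to 26. No paired analysis was possible because the groups share no replicate numbers.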
